A study of Mus musculus with 96 samples.

Results

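NRF2, encoded by Nfe2l2, and 9 of its antioxidant targets (Nqo1, Gclc, Gclm, Hmox1, Txnrd1, Srxn1, Taldo1, G6pdx and Slc7a11) were followed over one day in mouse epidermis. These 10 genes were taken by symbol from the 4 deposited expression tables, and are 10 of the 22384 genes present in all 4. All 10 averaged at least 1 RPKM (reads scaled to transcript length and library depth) and were among the 12144 genes tested. The question set by the design was which transcripts vary over the day when the clock gene Arntl, which encodes BMAL1, works in the skin, in the brain, in both or throughout the body.

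Male C57BL/6 mice, 8 weeks old and fed chow freely, lived under a light/dark cycle of 12 h each, and the epidermis of their backs was freed with dispase. At each of 6 times, every 4 h from lights on (zeitgeber time 0, ZT0), 4 mice of each genotype were sampled, which gave 24 libraries per genotype and 96 in all. RERE mice carried a stop cassette in both Arntl alleles (Arntl stopFL/stopFL) with both K14Cre tg/wt and Syt10-Cre tg/wt. EpiRE mice had the same Arntl alleles and K14Cre tg/wt, but no Syt10-Cre (wt/wt). BRE mice had them with Syt10-Cre tg/wt and without K14Cre (wt/wt). WT mice had intact Arntl (wt/wt) and carried both transgenes, K14Cre wt/tg and Syt10-Cre tg/wt. A stop cassette keeps a gene off until Cre removes it, the K14 promoter drives Cre in keratinocytes of the epidermis and other stratified epithelia, and the Syt10 gene drives it in the brain's central clock and other neurons. By this design, Arntl was restored in epidermis and brain in RERE, in epidermis in EpiRE and in brain in BRE.

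NRF2 is a transcription factor that the adaptor KEAP1 marks for degradation, and oxidants or electrophiles that modify KEAP1 let NRF2 build up without a need for more of its mRNA. In the nucleus it pairs with small MAF proteins on antioxidant response elements (AREs) and raises genes for glutathione and thioredoxin metabolism, NADPH supply and detoxification. In epidermis this response protects keratinocytes against ultraviolet light and chemicals.

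Promoter windows of RefSeq (GRCm38.p6, from 250 bases before to 50 bases after each annotated start) were matched for 8 of the 10 genes. The letters TGACNNNGC, the ARE core, were searched on both strands, and so was CACGTG, the E-box bound by BMAL1 with CLOCK. The ARE core was present in 5 of the 8 genes, beside 13.99% of all 27025 genes with a window and 12.4% of all windows. No window of the 8 genes held the E-box, which 8.09% of all genes held, so no 2 matches overlapped. A match describes the letters and shows no binding. The windows with a match are printed because they show where the NRF2-type letters lie in the activator and in 4 targets, with the match in capitals. They are Nfe2l2 at chr2:75704614-75704913 on the minus strand, Gclm at chr3:122245307-122245606 on the plus strand, Txnrd1 at chr10:82858956-82859255 on the plus strand, Srxn1 at chr2:152105274-152105573 on the plus strand and G6pdx at chrX:74428831-74429130 on the minus strand. For Txnrd1 it was 1 of 3 annotated starts that held the core.
Nfe2l2: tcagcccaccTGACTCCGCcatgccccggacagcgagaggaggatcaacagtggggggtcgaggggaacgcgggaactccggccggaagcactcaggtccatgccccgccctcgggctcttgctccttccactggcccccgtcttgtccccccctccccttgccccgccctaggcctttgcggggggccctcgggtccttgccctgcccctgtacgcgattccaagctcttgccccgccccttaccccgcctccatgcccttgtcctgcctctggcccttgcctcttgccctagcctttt
Gclm: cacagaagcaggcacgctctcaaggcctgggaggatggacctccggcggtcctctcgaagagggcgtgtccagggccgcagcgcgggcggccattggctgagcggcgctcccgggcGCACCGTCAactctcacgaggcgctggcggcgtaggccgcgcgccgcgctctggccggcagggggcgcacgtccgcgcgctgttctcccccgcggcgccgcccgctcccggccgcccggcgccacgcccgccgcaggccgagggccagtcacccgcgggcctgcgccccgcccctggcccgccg
Txnrd1: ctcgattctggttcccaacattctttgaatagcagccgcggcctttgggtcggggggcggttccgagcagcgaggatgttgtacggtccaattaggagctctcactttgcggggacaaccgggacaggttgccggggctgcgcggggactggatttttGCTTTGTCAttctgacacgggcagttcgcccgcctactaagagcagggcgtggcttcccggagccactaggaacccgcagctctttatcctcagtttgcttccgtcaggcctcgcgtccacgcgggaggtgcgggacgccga
Srxn1: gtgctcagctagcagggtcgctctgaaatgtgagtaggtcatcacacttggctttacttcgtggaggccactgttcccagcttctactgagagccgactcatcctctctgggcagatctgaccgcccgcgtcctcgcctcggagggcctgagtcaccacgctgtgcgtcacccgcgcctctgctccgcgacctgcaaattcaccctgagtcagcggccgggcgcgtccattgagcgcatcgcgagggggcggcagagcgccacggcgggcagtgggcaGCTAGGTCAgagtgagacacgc
G6pdx: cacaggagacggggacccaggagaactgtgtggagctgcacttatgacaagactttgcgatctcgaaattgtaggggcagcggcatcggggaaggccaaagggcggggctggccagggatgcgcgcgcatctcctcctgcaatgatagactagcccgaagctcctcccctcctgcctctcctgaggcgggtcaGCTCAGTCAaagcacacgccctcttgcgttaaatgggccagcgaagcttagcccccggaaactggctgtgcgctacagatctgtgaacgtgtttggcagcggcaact

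Estimated depth ran from 11380000 to 32740000 reads per library, with a median of 16700000. Keratinocyte markers dominated, with a summed level of 6798 to 12091 RPKM for the 5 basal markers over all libraries, while the markers of other cells summed to at most 192 RPKM for blood (3 of 5 found), 89.2 for T cells (4 of 5), 53.9 for skeletal muscle, 28.97 for melanocytes, 20.7 for fibroblasts, 8.47 for hair, 5.89 for neutrophils, 2.05 for adipocytes and 0.670 for endothelium. Most of the skeletal muscle sum came from Acta1, with medians of 33.8 to 36.7 RPKM over the genotypes. Ckm, Tnnt3 and Myh4 had medians of 0.0194 to 0.190. Thy1 gave most of the T cell sum, with medians of 34.5 to 51.7. The median for melanocytes was 8.61 in RERE, 8.48 in EpiRE, 9.09 in BRE and 12.1 in WT. Langerhans and dendritic cell markers (5 of 5 found) summed to 78.7 to 173 RPKM in RERE, 78.6 to 178 in EpiRE, 71.3 to 158 in BRE and 74.9 to 133 in WT. The 5 macrophage markers, relevant because macrophages express Hmox1, summed to 5.34 to 11.5, 4.88 to 11.4, 4.30 to 12.5 and 5.27 to 12.5 RPKM in the same order, and the part of any such cells in the rhythms was not tested. Arntl itself was read in every genotype and spanned 4.77 to 26.5 RPKM in RERE, 9.56 to 23.96 in EpiRE, 11.4 to 14.6 in BRE and 4.69 to 27.4 in WT. Values per gene do not separate reads before and after the cassette, so they do not check its removal. The BMAL1 target Dbp spanned 1.39 to 110 RPKM in RERE, 4.67 to 65.4 in EpiRE, 2.74 to 5.69 in BRE and 1.83 to 133 in WT. In bulk tissue, fewer cells of a type and less RNA per cell cannot be told apart.

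Over the day, 3 of the 10 NRF2 genes had a rhythm in RERE, 0 in EpiRE and 1 in BRE, against 6 in WT. A rhythm was called by limma's F test of a 24 h cosine and sine at an adjusted p below 0.05 over all tested genes, and its size is the log2 difference between the highest and the lowest point of the fitted curve. Called rhythms made up 16.4% of all tested genes in RERE, 2.87% in EpiRE, 17.1% in BRE and 34.4% in WT. The RERE genes were Nqo1, Gclm and Taldo1, the BRE gene was Gclm, and the WT genes were Nfe2l2, Gclm, Srxn1, Taldo1, G6pdx and Slc7a11. At an unadjusted p below 0.05, the counts were 3 in RERE, 2 in EpiRE (Hmox1 and Srxn1), 3 in BRE and 8 in WT, beside 31.4%, 20.5%, 34.2% and 45.4% of all tested genes in the same order. Without any 1 of the replicate numbers, which leaves 3 mice per time, the adjusted counts were 1 in RERE, 0 in EpiRE, 0 to 1 in BRE and 2 to 5 in WT. The median fitted size of the 10 genes was 0.23 in RERE, 0.16 in EpiRE, 0.27 in BRE and 0.38 in WT, beside 0.18, 0.15, 0.20 and 0.23 over all tested genes in the same order. Where mice of a high and a low time are printed below, the times were picked by their highest and lowest means. That choice favours separation, so a lack of overlap is a description and no test.

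**Figure D1:**
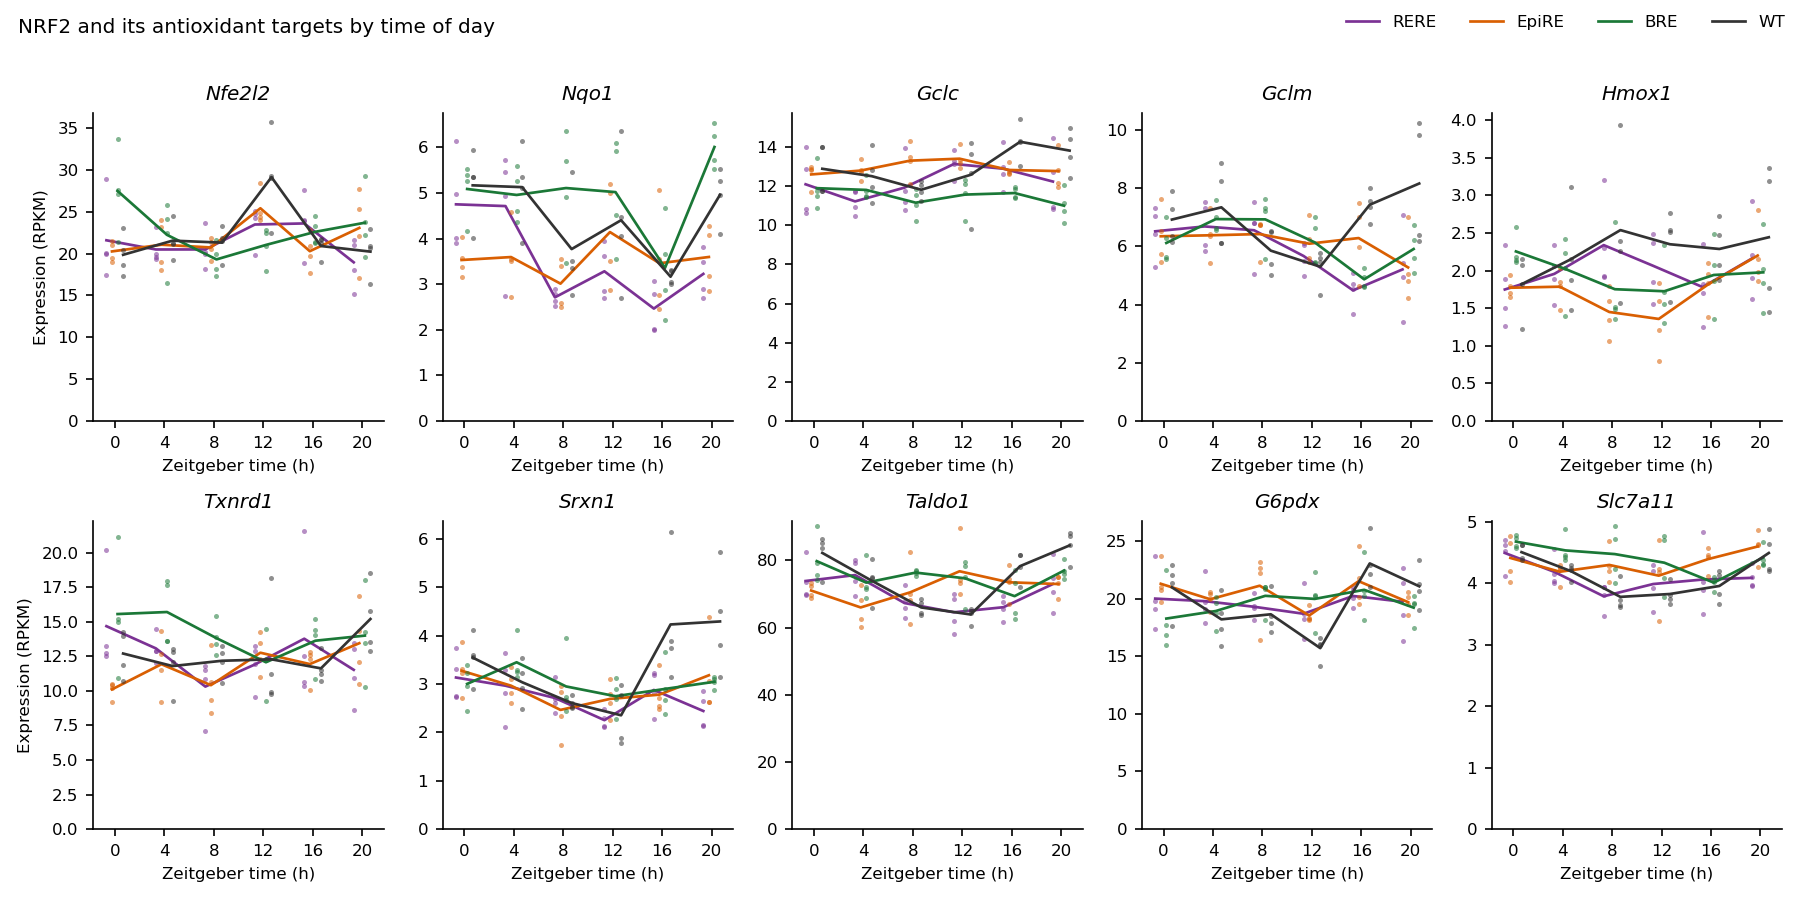
Expression of the 10 genes in RPKM (vertical axes from 0) against zeitgeber time in hours, with 1 point per mouse (n = 4 per genotype and time) and lines through the means. WT Taldo1 is lowest at ZT12 (mean 63.9) and highest at ZT20 (mean 84.5), and the mean of Nfe2l2 is highest at ZT0 in BRE (27.5) but at ZT12 in WT (29.1).

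The mRNA of NRF2 itself (Nfe2l2, chr2:75675513-75704641, mm10, minus strand) averaged 21.4 ± 3.3 RPKM in RERE, 21.8 ± 3.01 in EpiRE, 22.7 ± 3.97 in BRE and 22.2 ± 4.18 in WT (SD, n = 24 each). These means were not tested between genotypes, because each genotype's table was normalized apart. In RERE and EpiRE, the fitted sizes of 0.20 ± 0.12 and 0.16 ± 0.11 (SE) had adjusted p of 0.460 and 0.620 (limma).

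In BRE, the mean of Nfe2l2 was highest at ZT0 and lowest at ZT8. The 4 BRE mice had 21.4, 27.2, 27.6 and 33.7 RPKM at ZT0 and 21.6, 17.4, 20.01 and 18.2 at ZT8, with 1 mouse of each time in the range of the other. The BRE fit of 0.38 ± 0.12, peaking at ZT22.0, did not pass (limma, adjusted p = 0.0694), and it passed without any 1 of 3 libraries (ZT0 mouse 1, 0.0430; ZT4 mouse 2, 0.0405; ZT20 mouse 4, 0.0337).

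In WT, the mean of Nfe2l2 was highest at lights off. The 4 WT mice had 18.6, 20.5, 23.1 and 17.3 RPKM at ZT0 and 35.8, 22.5, 29.3 and 29.0 at ZT12. All but 1 of the WT mice at ZT12 stood above all of those at ZT0, and the other WT times averaged 20.2 to 21.5 RPKM. The fitted WT rhythm was 0.38 ± 0.12 with a peak at ZT11.3 (limma, adjusted p = 0.0476). That call was narrow: it was lost when any 1 of 17 of the 24 WT libraries was left out, with adjusted p from 0.0503 to 0.108, and it held without ZT0 mouse 3, ZT4 mouse 1, ZT8 mouse 1 or 2, ZT12 mouse 2, ZT16 mouse 2 or ZT20 mouse 4. It was also lost without the filter on low values (0.0840).

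Glutathione synthesis begins with glutamate-cysteine ligase, whose catalytic subunit is Gclc and whose modifier subunit is Gclm. Slc7a11, the cystine importer xCT, supplies the cysteine. Gclm (chr3:122245557-122270732, mm10, plus strand, with the pseudogene Gm6061 inside its span) was called in 3 genotypes, and the fitted peaks fell at ZT4.65 ± 0.92 h in RERE, ZT5.17 ± 0.83 in BRE and ZT21.6 ± 1.1 in WT (SE). The 4 RERE mice had 7.53, 5.84, 6.06 and 7.31 RPKM at ZT4 and 4.69, 3.67, 4.53 and 5.07 at ZT16. The 4 BRE mice had 6.56, 7.58, 6.62 and 6.99 RPKM at ZT4 and 5.25, 4.64, 4.96 and 4.62 at ZT16. The 4 WT mice had 5.60, 4.34, 5.47 and 5.79 RPKM at ZT12 and 10.2, 6.20, 6.38 and 9.82 at ZT20. In each of these 3 genotypes, the mice at the time of the highest mean stood above all mice at the time of the lowest mean, times that were picked by those means. At ZT16, where RERE and BRE were lowest, the mean was 4.49 ± 0.59 RPKM in RERE and 4.87 ± 0.30 in BRE, against 7.43 ± 0.51 in WT (SD, n = 4 each; levels not tested between genotypes). The sizes were 0.58 ± 0.14 in RERE (limma, adjusted p = 0.0177), 0.44 ± 0.09 in BRE (0.0120) and 0.48 ± 0.14 in WT (0.0338). The WT call was lost on leaving out any 1 of 8 libraries (ZT0 mouse 4, ZT8 mice 1 and 4, ZT12 mice 1 to 3, or ZT20 mice 1 and 4), with adjusted p from 0.0517 to 0.0710, under rescaling of the libraries by median-of-ratios factors (0.0851) and without the filter on low values (0.0607). The RERE call was lost with time as a factor (0.105).

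Slc7a11 (chr3:49892526-50443614, mm10, minus strand) was called in WT, with a small size. In RERE and EpiRE, the adjusted p was 0.166 and 0.431 for sizes of 0.17 ± 0.07 and 0.12 ± 0.06 (limma). In BRE, the 4 mice had 4.57, 4.61, 4.79 and 4.73 RPKM at ZT0 and 4.02, 4.09, 4.05 and 3.86 at ZT16, without overlap between these times picked by their means. The BRE fit of 0.17 ± 0.06 did not pass (adjusted p = 0.0844), except without ZT12 mouse 3 (0.0416) or ZT12 mouse 4 (0.0380). In WT, the 4 mice had 4.62, 4.61, 4.38 and 4.41 RPKM at ZT0 and 4.12, 3.65, 3.62 and 3.72 at ZT8, also without overlap. The WT size was 0.29 ± 0.04 with a peak at ZT22.7 (limma, adjusted p = 0.000194), and no single library removed the call.

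Gclc (chr9:77754535-77794485, mm10, plus strand) had no called rhythm. It averaged 12.2 ± 1.29 RPKM in RERE, 12.9 ± 0.67 in EpiRE, 11.5 ± 0.77 in BRE and 12.98 ± 1.4 in WT (SD, n = 24 each). The largest fit was in WT, at 0.24 ± 0.08 with a peak at ZT18.6 (limma, adjusted p = 0.0565). It passed on leaving out any 1 of 5 WT libraries (ZT0, ZT4, ZT12 or ZT20 mouse 3, or ZT12 mouse 4; 0.0187 to 0.0495).

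Thioredoxin reductase 1 (Txnrd1, chr10:82833951-82897712, mm10, plus strand, with Eid3 inside its span on the same strand at 3.01 RPKM) keeps thioredoxin reduced, and sulfiredoxin (Srxn1, chr2:152105516-152111376, plus strand) restores over-oxidised peroxiredoxins. Srxn1 had the largest fitted size of the 10 genes in WT, and Txnrd1 had no called rhythm in any genotype. For Srxn1 in RERE, EpiRE and BRE, the sizes of 0.29 ± 0.14, 0.38 ± 0.14 and 0.22 ± 0.12 did not pass, at adjusted p of 0.306, 0.223 and 0.349 (limma). In WT, its 4 mice had 2.98, 2.77, 1.79 and 1.88 RPKM at ZT12 and 5.72, 3.14, 3.81 and 4.51 at ZT20, without overlap between these times picked by their means. The WT size was 0.82 ± 0.18, a 1.76-fold difference, with a peak at ZT20.5 (limma, adjusted p = 0.00464). For Txnrd1, the fitted sizes of 0.24 to 0.32 had adjusted p from 0.245 to 0.572 over the 4 genotypes. One RERE mouse at ZT0 had 20.2 RPKM of Txnrd1, while the other 3 had 12.5 to 13.3.

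Taldo1 (chr7:141392199-141402968, mm10, plus strand) and G6pdx are enzymes of the pentose phosphate pathway, whose first step, by G6pdx, makes NADPH, the reductant for both the glutathione and the thioredoxin system. Taldo1, transaldolase, had the highest level of the 10 in RPKM and the smallest adjusted p in WT. In RERE, the 4 mice had 80.1, 69.5, 79.1 and 73.8 RPKM at ZT4 and 58.0, 61.8, 70.0 and 68.4 at ZT12, with overlap. The RERE size was 0.24 ± 0.06 with a peak at ZT0.760 (limma, adjusted p = 0.0235), a call lost without ZT0 mouse 2 (0.0561) or ZT12 mouse 1 (0.0568). Rescaling (0.104) and time as a factor (0.138) also ended the RERE call. EpiRE and BRE had sizes of 0.16 ± 0.07 and 0.10 ± 0.06, at adjusted p of 0.295 and 0.443. In WT, the 4 mice had 64.4, 60.6, 65.5 and 65.1 RPKM at ZT12 and 88.2, 87.1, 84.5 and 78.1 at ZT20, without overlap between these times picked by their means. The WT size was 0.42 ± 0.05, or 1.34-fold, with a peak at ZT21.5 ± 0.45 h (limma, adjusted p = 9.37e-06).

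G6pdx (chrX:74409483-74429194, mm10, minus strand) was called in WT. In RERE, EpiRE and BRE, the sizes of 0.07 ± 0.08, 0.07 ± 0.08 and 0.16 ± 0.08 had adjusted p of 0.818, 0.863 and 0.296 (limma). In WT, its mice had 15.97, 16.1, 14.2 and 16.6 RPKM at ZT12 and 22.2, 22.9, 21.0 and 26.1 at ZT16. The ZT16 mean was 1.47-fold the ZT12 mean, with no overlap between the mice of these times, which were picked by their means. The WT size was 0.37 ± 0.10 with a peak at ZT20.4 (limma, adjusted p = 0.0231), and rescaling ended this call (0.0666). The span of G6pdx lies within that of Ikbkg on the other strand, which averaged 10.0 RPKM. Whether reads were counted by strand is not given in the sources used here, so reads of these genes may be mixed.

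Nqo1 (chr8:107388225-107403206, mm10, minus strand), a quinone reductase and a standard readout of NRF2, was called in RERE. The 4 RERE mice had 6.13, 4.00, 3.89 and 4.98 RPKM at ZT0 and 3.06, 1.99, 2.02 and 2.80 at ZT16, without overlap between these times picked by their means. Its size of 0.83 ± 0.20, or 1.77-fold, peaked at ZT1.85 (limma, adjusted p = 0.0178). The 4 WT mice had 5.94, 5.36, 5.35 and 4.02 RPKM at ZT0 and 3.30, 3.32, 3.00 and 3.05 at ZT16, also apart. The WT fit of 0.58 ± 0.19, peaking at ZT0.945, did not pass (0.0639), and passed without ZT0 mouse 4 (0.0463), ZT8 mouse 4 (0.0499) or ZT12 mouse 4 (0.00745). The RERE and WT rhythms of Nqo1 did not differ detectably by a joint test of size and timing (limma, adjusted p = 0.865). Their size difference was 0.25 ± 0.28 (SE), and size was not tested alone. In EpiRE the size was 0.10 ± 0.19, and in BRE it was 0.38 ± 0.21 (adjusted p = 0.962 and 0.387).

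Hmox1 (chr8:75093621-75100589, mm10, plus strand), the inducible heme oxygenase, had no called rhythm. It had the lowest level per length of the 10, at a mean of 1.73 RPKM in EpiRE to 2.27 in WT and a median of about 55.6 estimated reads per library, a counting error of 13.4%. The largest fit was in EpiRE, where the 4 mice had 1.22, 1.59, 1.83 and 0.794 RPKM at ZT12 and 2.16, 2.80, 1.98 and 1.86 at ZT20. These times were picked by their means, and their mice did not overlap. That size of 0.62 ± 0.17 did not pass over all tested genes (limma, adjusted p = 0.102).

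**Figure D2:**
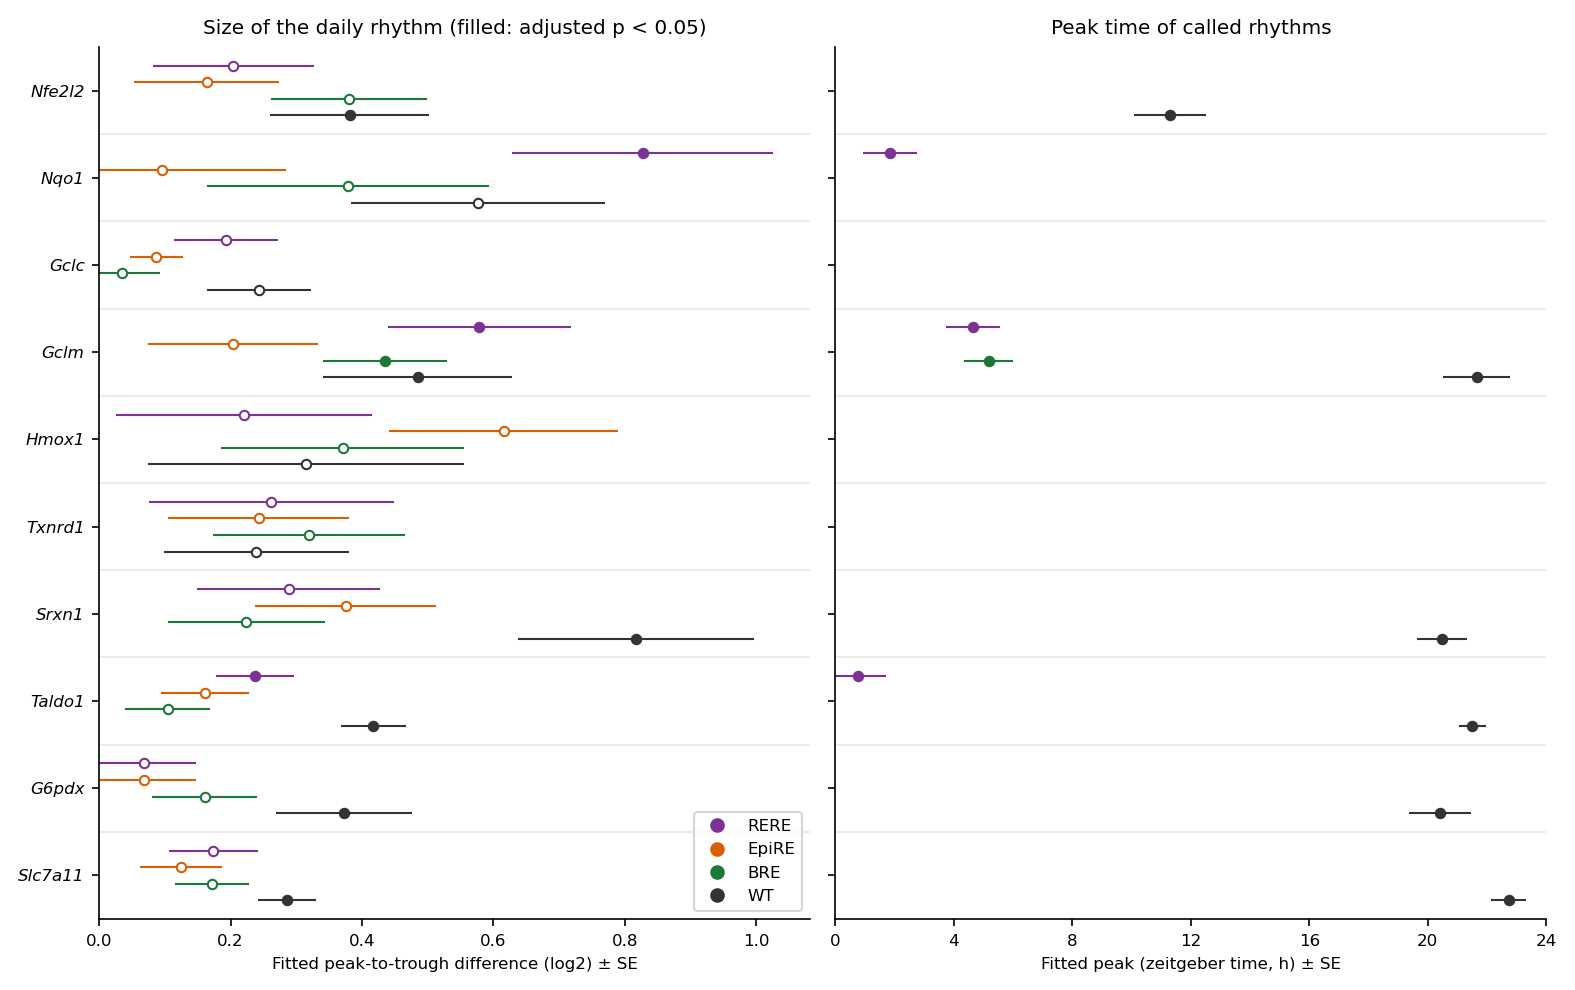
Left, fitted peak-to-trough difference (log2, horizontal axis) with its SE for each gene in RERE, EpiRE, BRE and WT, filled where the adjusted p is below 0.05. Right, fitted peak in zeitgeber hours with its SE for the called rhythms, an error bar of RERE Taldo1 being cut at ZT0. The 5 targets shown here that were called in WT peak between ZT20.4 and ZT22.7, whereas WT Nfe2l2 peaks at ZT11.3.

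The 3 called RERE rhythms had fitted peaks in the first hours of light, at ZT0.760 (Taldo1), ZT1.85 (Nqo1) and ZT4.65 (Gclm). The 5 called targets of WT peaked late in the dark phase, at ZT20.4 (G6pdx), ZT20.5 (Srxn1), ZT21.5 (Taldo1), ZT21.6 (Gclm) and ZT22.7 (Slc7a11), while Nfe2l2 peaked at ZT11.3, close to lights off. These are fitted positions, given as a description, and the peak times of other called WT genes were not compared with them. The means can differ from the fit. WT G6pdx had its highest mean at ZT16 (23.1 RPKM), and WT Gclm had 7.34 at ZT4, 7.43 at ZT16 and 8.16 at ZT20.

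BRE and WT epidermis, without and with functional Arntl by design, had different daily patterns for 6 of the 10 genes: Nfe2l2, Gclm, Srxn1, Taldo1, G6pdx and Slc7a11. Patterns that differ between BRE and WT made up 20.2% of all tested genes, by limma's F test of the interaction of genotype with cosine and sine, at an adjusted p below 0.05. At an unadjusted p below 0.05 there were 7 of the 10, beside 35.4% of all tested genes. The test responds to size and to timing. For Srxn1, Taldo1, G6pdx and Slc7a11, the fitted size was smaller in BRE. The differences (BRE minus WT) were -0.59 ± 0.22, -0.31 ± 0.08, -0.21 ± 0.13 and -0.11 ± 0.07 log2 (SE). Their fitted peaks lay apart as well, by shifts (BRE minus WT) of 5.47 ± 2.7, 4.09 ± 2.2, -7.66 ± 2.4 and 3.93 ± 1.3 h (SE). However, these 4 genes had no called rhythm in BRE (limma, adjusted p = 0.349, 0.443, 0.296 and 0.0844, same order). Their BRE peaks are therefore poorly placed, and these shifts and SEs do not establish a change in timing. The adjusted p of 0.0191, 0.00288, 0.0286 and 0.0320 (limma, same order) are of the joint test, and size was not tested alone. For Nfe2l2 and Gclm, the sizes were nearly the same and the fitted peaks lay far apart. Nfe2l2 had sizes of 0.38 ± 0.12 in both genotypes and peaks at ZT22.0 in BRE and ZT11.3 in WT, a shift of 10.7 ± 1.7 h (adjusted p = 0.00502). The BRE rhythm of Nfe2l2 was itself not called, and its WT call was narrow (limma, adjusted p = 0.0694 and 0.0476). Gclm peaked at ZT5.17 in BRE and ZT21.6 in WT, a shift of 7.52 ± 1.4 h (adjusted p = 0.00474). The calls for G6pdx and Slc7a11 were lost under rescaling (0.0565 and 0.123), and those for Srxn1 and Slc7a11 with time as a factor (0.0661 and 0.171). Without the filter on low values, those for G6pdx and Slc7a11 were lost (0.0508 and 0.0503). Among genes with reads in most libraries, an alternative chosen after seeing the data, Slc7a11 was lost (0.0551), and without any 1 of the replicate numbers 2 to 3 of the 6 held.

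**Figure D3:**
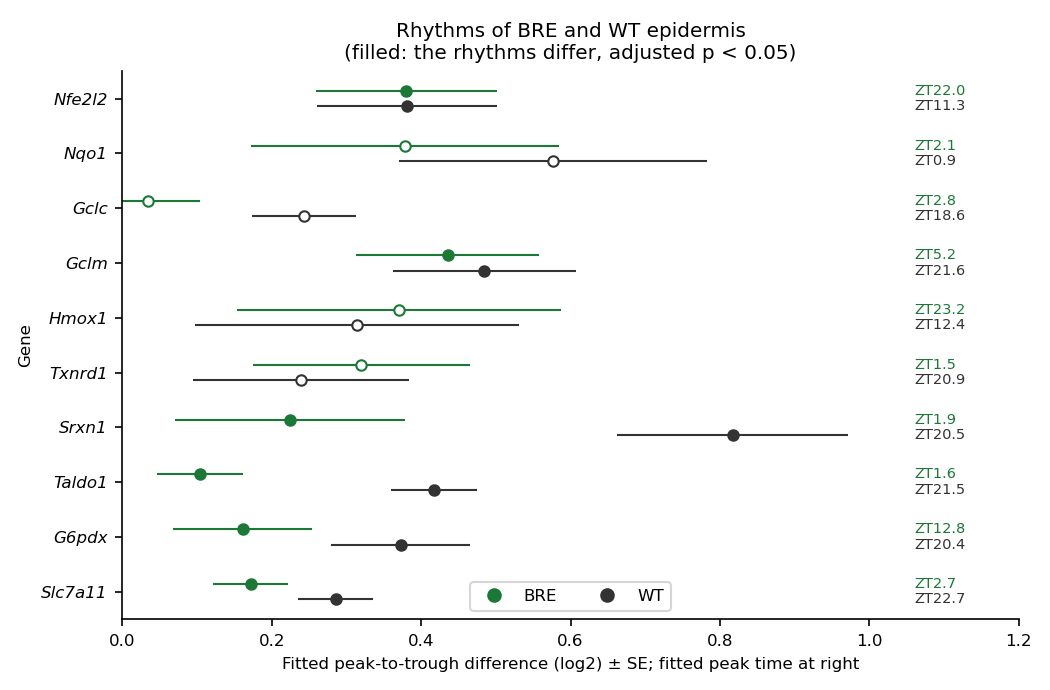
Fitted peak-to-trough difference (log2) with its SE in BRE and WT for each gene, from the fit of both genotypes, with the fitted peak time printed at the right in the genotype's colour. Filled points mark the 6 genes whose rhythms differ at an adjusted p below 0.05. Nfe2l2 has a size of 0.38 in both, with fitted peaks 10.7 h apart, though its rhythm in BRE alone was not called. Nor were the BRE rhythms of Srxn1, Taldo1, G6pdx and Slc7a11, so their BRE peak times are poorly placed.

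In the other comparisons, Taldo1 was the one gene of the 10 that was called. EpiRE and WT differed for Taldo1 by the same joint test of size and timing (limma, adjusted p = 0.00168), as did 8.51% of all tested genes. The sizes were 0.16 ± 0.06 in EpiRE and 0.42 ± 0.06 in WT, a difference of -0.26 ± 0.08. The fitted peaks were ZT15.3 in EpiRE and ZT21.5 in WT, a shift of -6.17 ± 1.5 h. The EpiRE rhythm of Taldo1 was itself not called (limma, adjusted p = 0.295). Its EpiRE peak, here and against RERE, is therefore poorly placed. RERE and EpiRE also differed for Taldo1 (4.04% of all tested genes), the fitted peaks being ZT0.760 in RERE and ZT15.3 in EpiRE, with an adjusted p of 0.0262. At an unadjusted p below 0.05, EpiRE and WT differed for 4 of the 10 (25.6% of all tested genes) and RERE and EpiRE for 3 (19.1%). The RERE and EpiRE call was lost under rescaling (0.111) and with time as a factor (0.123). RERE and WT differed for 0 of the 10 genes, where 0.453% of all tested genes did. At an unadjusted p below 0.05 there were 3 (Gclm, Srxn1 and Taldo1, at adjusted p of 0.0687, 0.152 and 0.0812), beside 13.7% of all tested genes, with Gclm peaking at ZT4.65 in RERE and ZT21.6 in WT. RERE against BRE and EpiRE against BRE gave 0 of 10 each (4.79% and 13.9% of all tested genes), with 1 and 3 genes at an unadjusted p below 0.05 (14% and 31% of all tested genes). Comparisons with WT share the WT libraries, and the others share libraries in the same way.

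Between mice, the targets were compared with the mRNA of their activator over the 24 libraries of each genotype, a family of 36 relations, of which 7 passed by Pearson's r and 10 by Spearman's rho at an adjusted p below 0.05 by permutation (100000 resamples, two-sided). Other tested genes were not correlated with Nfe2l2. The share of them that would pass is therefore not known, and the counts are not particular to NRF2 targets. Without replicate 3 of every group, 0 of the 36 passed by Pearson's r. G6pdx was lower where Nfe2l2 was higher in BRE and WT. In BRE, Pearson's r was -0.602 (permutation p = 0.00191, adjusted p = 0.0138) and Spearman's rho -0.658 (p = 0.00053, adjusted p = 0.00636). In WT, r was -0.689 (permutation p = 7e-05, adjusted p = 0.00252) and rho -0.724 (p = 0.00013, adjusted p = 0.00468). Without the 2 libraries farthest in Nfe2l2, r was -0.658 in BRE and -0.596 in WT. In RERE and EpiRE, r was -0.502 and -0.449 and did not pass (permutation, adjusted p = 0.0559 and 0.0727), while rho was -0.504 and -0.514 and did (permutation, adjusted p = 0.0473 and 0.0457). With each time centred on its own mean, r for G6pdx was -0.594 in RERE, -0.198 in EpiRE, -0.572 in BRE and -0.464 in WT (permutation, adjusted p = 0.0235, 0.571, 0.0235 and 0.0722). The centred values were permuted over all 24 libraries regardless of time, without allowance for the time means taken out. Within-time p-values here and below are therefore too small. Under median-of-ratios rescaling, r for G6pdx in BRE was -0.431 and no longer passed (permutation, adjusted p = 0.114).

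Txnrd1 was higher where Nfe2l2 was higher in RERE and EpiRE, and Hmox1 in BRE. Txnrd1 had r = 0.637 in EpiRE (permutation p = 0.00095, adjusted p = 0.0114; rho 0.658, p = 0.00071, adjusted p = 0.00639), and 0.556 without the 2 farthest libraries. In RERE it had r = 0.618 (permutation p = 0.0013, adjusted p = 0.0117), but rho was 0.348 (p = 0.0966, adjusted p = 0.217) and r fell to 0.361 without the 2 farthest libraries, so that the relation rests on those. Hmox1 had r = 0.651 in BRE (permutation p = 0.00057, adjusted p = 0.0103; rho 0.676, p = 0.00046, adjusted p = 0.00636), and 0.668 without the 2 farthest. By rho alone, Txnrd1 passed in BRE (0.510, permutation p = 0.0114, adjusted p = 0.0457; r = 0.491, adjusted p = 0.0608) and Hmox1 in WT (0.595, permutation p = 0.00272, adjusted p = 0.0163; r = 0.447, adjusted p = 0.0727). Centred on each time, Txnrd1 had r = 0.724 in RERE, 0.616 in EpiRE, 0.521 in BRE and 0.479 in WT (permutation, adjusted p = 0.00288, 0.0203, 0.0435 and 0.0660), and Hmox1 had 0.571 in BRE and 0.573 in WT (both 0.0235). As within-time p-values are too small, those just below 0.05 are no firm calls. The within-time r of Txnrd1 in RERE still includes the 2 libraries farthest in Nfe2l2, and it was not computed without them. Taldo1 was lower where Nfe2l2 was higher in RERE (r = -0.558, permutation p = 0.00469, adjusted p = 0.0241; rho -0.601, p = 0.00239, adjusted p = 0.0163; -0.646 without the 2 farthest) and in WT (r = -0.550, permutation p = 0.0037, adjusted p = 0.0222; rho -0.553, p = 0.00576, adjusted p = 0.0296; -0.469 without the 2 farthest). Within times, the WT relation of Taldo1 did not pass (r = -0.094, permutation, adjusted p = 0.795), and in RERE r was -0.494 (0.0571). The RERE relation of Taldo1 also did not pass under rescaling (r = -0.509, permutation, adjusted p = 0.0516). Nqo1, the standard readout, had r between 0.026 in RERE and 0.442 in EpiRE (permutation, adjusted p = 0.0748 to 0.903). Within times, r for Nqo1 was 0.281 in RERE, 0.352 in EpiRE, 0.513 in BRE and 0.402 in WT (permutation, adjusted p = 0.345, 0.205, 0.0475 and 0.149). The BRE value lay just below 0.05, with the same limit.

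**Figure D4:**
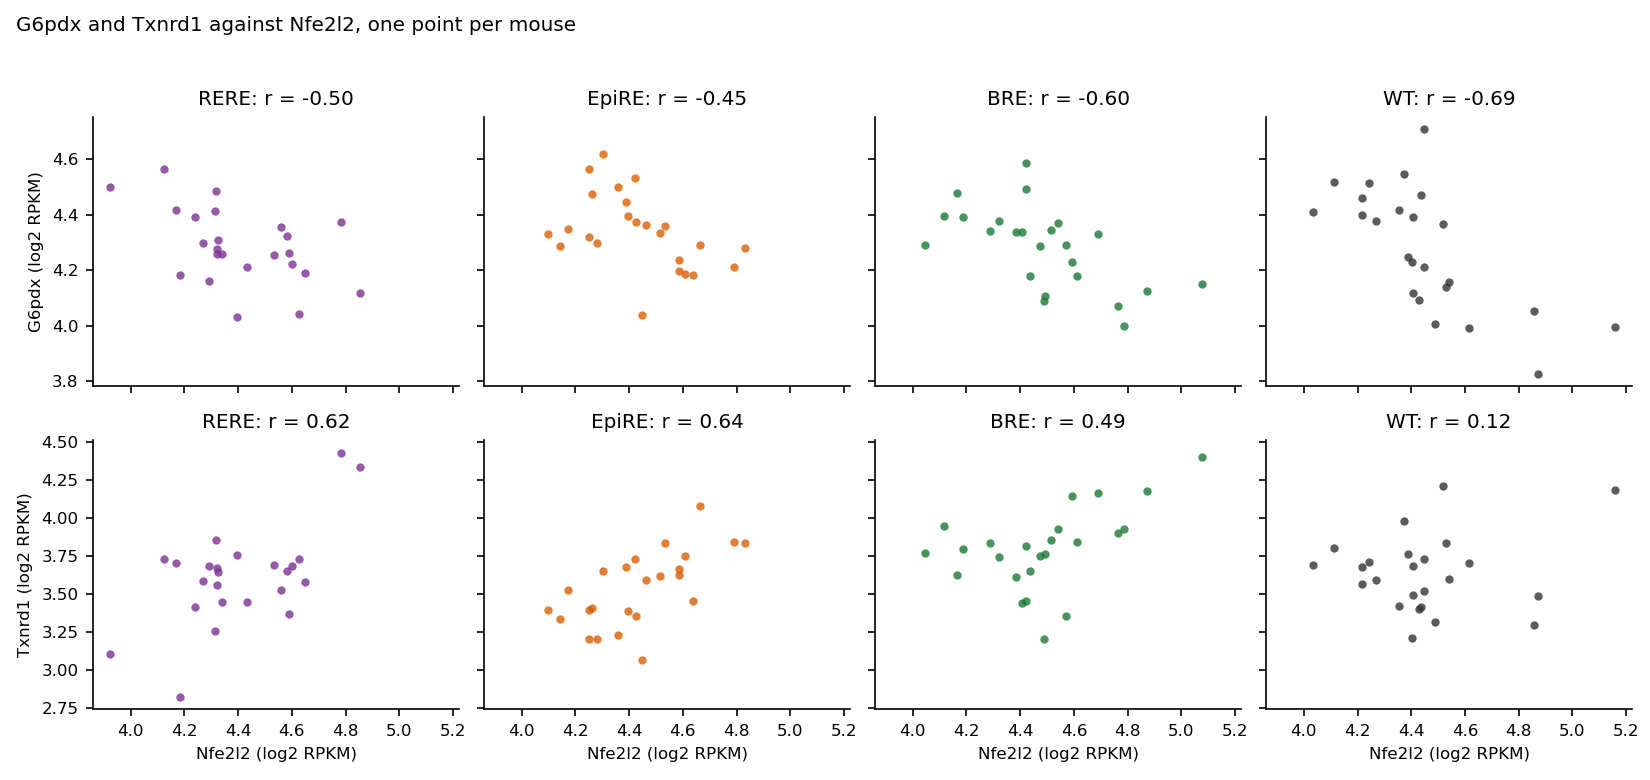
G6pdx (upper row) and Txnrd1 (lower row) against Nfe2l2, both in log2 RPKM, with 1 point per mouse and 24 mice in each genotype. For G6pdx, r is negative in each panel (-0.69 to -0.45), and in RERE the 2 highest Txnrd1 points lie at the high end of Nfe2l2.

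Across the 24 genotype-by-time means, each centred on its genotype, Nfe2l2 and G6pdx were the most unlike pair (r = -0.72, a description over 24 means of 4 libraries each). Taldo1 and Slc7a11 were the most alike (0.72), followed by Srxn1 and G6pdx (0.67). Beyond the 10 genes, the closest profiles by this measure were those of Vps37b for Nfe2l2 (0.92), the glutathione S-transferase Gstm2 for Nqo1 (0.92), Nbeal2 for G6pdx (0.91), the tubulin Tuba1b for Slc7a11 (0.90), the malate dehydrogenase Mdh2 for Taldo1 (0.89), Dus2 for Srxn1 (0.87), Vps52 for Gclm (0.85), Cdyl for Txnrd1 (0.82) and Haus8 for Gclc (0.79). For Hmox1 it was the microRNA gene Mir151 (0.73), which sat at its lowest value in 16 to 18 of the 24 libraries of each genotype, so that match rests on few libraries.

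**Figure D5:**
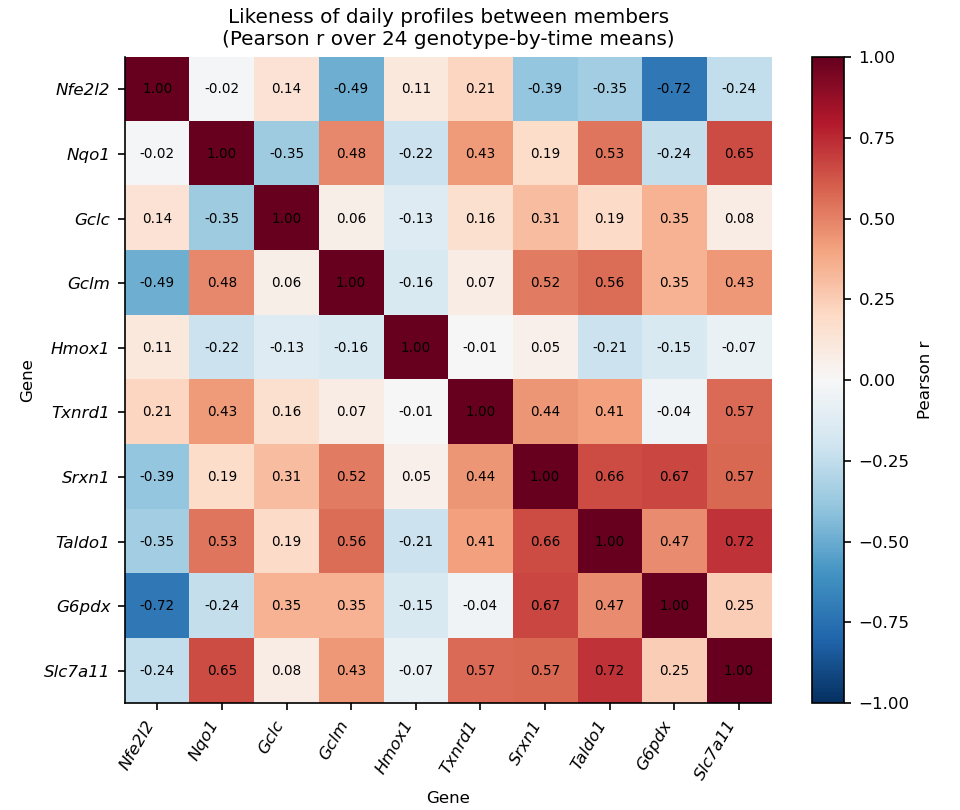
Pearson r between the daily profiles of each pair of the 10 genes over 24 genotype-by-time means (red, positive; blue, negative; scale from -1 to 1). The strongest negative value is between Nfe2l2 and G6pdx (-0.72), and Hmox1 has values between -0.22 and 0.11 with every other gene.

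A wider list of 35 NRF2 pathway genes, of which 34 were tested, was read from the same fits. Rhythms were called for 7 in RERE, 0 in EpiRE, 6 in BRE and 16 in WT, or 20.6%, 0%, 17.6% and 47.1% of the list, beside 16.4%, 2.87%, 17.1% and 34.4% of all tested genes. Of the 8 regulators on the list, 0 were called in RERE and EpiRE, 1 in BRE (the small MAF gene Mafg, adjusted p = 0.0399, limma) and 3 in WT (Cul3, 0.00437, whose product is the scaffold of the KEAP1 ubiquitin ligase; the small MAF gene Mafk, 0.0399; and Nfe2l1, 0.0308). Keap1 and Bach1, repressors of the pathway, had no called rhythm or difference in any genotype or pair. For Keap1, the sizes ran from 0.11 ± 0.04 in EpiRE to 0.19 ± 0.06 in BRE (limma, adjusted p = 0.0731 to 0.292), and for Bach1, which competes with NRF2 for AREs, from 0.13 ± 0.08 in RERE to 0.27 ± 0.12 in WT (0.188 to 0.527). In WT, all 3 thioredoxin-group genes (Txn1, Prdx1 and Prdx6), 3 of 4 further NADPH-supply genes and 6 of 9 genes of conjugation, reduction and export were called, as were 1 of 7 glutathione genes and 0 of 3 genes of iron and heme. The smallest adjusted p in WT was that of the glucuronosyltransferase Ugt1a6a, with a size of 0.75 ± 0.07 and a peak at ZT2.52 (limma, adjusted p = 1.15e-06). Aldh3a1, an aldehyde dehydrogenase, was 1.03 ± 0.18 in RERE and 1.39 ± 0.24 in WT, with peaks at ZT15.7 and ZT15.6 (limma, adjusted p = 0.00145 and 0.000679).

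BRE and WT differed for 12 of these 34 genes (35.3%), 4 with the larger fitted size in BRE and 8 in WT. Of all tested genes 20.2% differed, 679 (5.59%) with the larger size in BRE and 1778 (14.6%) in WT. The smallest adjusted p belonged to the epoxide hydrolase Ephx1 (size difference, BRE minus WT, -0.42 ± 0.13; 3.66e-05, limma), the peroxiredoxins Prdx6 (-0.25 ± 0.09; 0.000404) and Prdx1 (0.07 ± 0.07; 0.00694) and the NRF2 relative Nfe2l1 (-0.07 ± 0.06; 0.00902). These adjusted p values are of the joint test of size and timing. EpiRE and WT differed for 1 gene, Ugt1a6a (limma, adjusted p = 0.000138), or 2.94% of the 34 beside 8.51% of all tested genes. RERE and EpiRE differed for 1, Tkt (limma, 0.0379), or 2.94% beside 4.04%. RERE and WT differed for 0, where 0.453% of all tested genes did. RERE and BRE differed for 3, Ephx1, Prdx6 and Gsta4 (limma, 0.000315, 0.00658 and 0.0216), or 8.82% beside 4.79%. EpiRE and BRE differed for 9 (26.5%, beside 13.9% of all tested genes), with the smallest adjusted p for the transketolase Tkt (0.000909) and Prdx1 (0.00418).

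The authors' deposited tables hold q values of 2 rhythm searches for each genotype. By JTK_CYCLE, the authors' deposited table has q below 0.05 for 0 of the 10 genes in RERE, 0 in EpiRE, 1 in BRE (Gclm, 0.0408) and 3 in WT (Srxn1, 0.0108; Taldo1, 0.000438; Slc7a11, 0.00109). Over all tested genes, the shares in the authors' deposited table of JTK_CYCLE are 8.52% in RERE, 0.156% in EpiRE, 5.67% in BRE and 20.8% in WT. By BIOCYCLE, the authors' deposited table has q below 0.05 for 2 of the 10 genes in WT, Taldo1 (0.00445) and Slc7a11 (0.00425), and for 0 in RERE, EpiRE and BRE. The shares of all tested genes in the authors' deposited table of BIOCYCLE are 1.56% in RERE, 0% in EpiRE, 0% in BRE and 10% in WT, so the counts of 0 say little about these genes.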

How the data were processed

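Poly(A) RNA of mouse epidermis was sequenced with a stranded kit, per the labels' protocols. Reads were processed with Trimmomatic 0.36, HISAT2 2.2.1, SAMtools 1.3.1, featureCounts 1.6.0, edgeR and mouse build mm10, per the submitters' processing notes. The authors deposited 1 table per genotype with a log2 value per gene and library. Their unit is not stated; it was inferred from the values as log2 RPKM with a prior count of 2 reads, and depth was estimated from the floor which that prior leaves. The floors of RERE, EpiRE and BRE lay 0.03, 0.13 and 0.11 log2 above that of WT, so levels were not tested between genotypes. The authors also deposited q-values of JTK_CYCLE and BIOCYCLE; 96 sample columns of the JTK_CYCLE tables repeat the same values and were not used.

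Genes averaging at least 1 RPKM over all 96 libraries (12144 of 22384) were tested in R 4.3.3 with eBayes (trend) of limma 3.58.1 on the deposited log2 values without a further pseudocount, with p-values adjusted over all tested genes (Benjamini-Hochberg). A rhythm is the F test of a 24 h cosine and sine in the 24 libraries of a genotype, and a rhythm difference that of their interaction with genotype in 48 libraries, with a free mean per genotype. The filter passes 245 genes that have 1 constant value in a genotype, short genes lifted by the prior count. Read numbers per gene are estimates from exon lengths. Relations used Pearson and Spearman coefficients with permutation tests (scipy 1.17.1), and the figures matplotlib 3.10.9. Where values were centred first, on each time or on each replicate number, they were then permuted freely over the libraries of a genotype. This makes no allowance for the means taken out, so those p-values are too small. The fits were tested on simulated data. The labels give replicate numbers but do not say what they mark, and p-values measure the spread between the sampled mice.

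All 10 genes are named throughout. Of the wider list, Keap1 and Bach1 are named always, with at most the 4 called genes of smallest adjusted p per comparison; the further genes named (Txn1, Prdx1, Cul3, Mafk and Nfe2l1 in WT, and Mafg in BRE) stand for their list groups and were chosen after their values were seen. The most alike gene is the 1 tested gene outside the 10 with the highest r. The genes, lists and tests were chosen with earlier results of these data known. Alternatives were rescaling by median-of-ratios factors, no filter, a pseudocount of 1 RPKM, time as a factor, a replicate block, leaving out replicates or libraries and, added after seeing the data, keeping the 11689 genes with reads in most libraries.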

Additional observations from a re-analysis of the deposited data

Results flagged for a closer look

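In 13 of the 240 groups of 4 mice (10 genes by 24 genotype-and-time groups), 1 mouse lay apart from the other 3, by Dixon's criterion at the 95% level. Chance flags about 1 in 20 groups, or 5%. The criterion sets the gap against the range of the 4 mice, so small differences are flagged where the other 3 lie close together. In RERE these were Nfe2l2 at ZT12 (19.89 RPKM in mouse 3, the others 24.24 to 25.09) and Txnrd1 at ZT0 (20.21 in mouse 1, the others 12.51 to 13.25) and at ZT8 (7.082 in mouse 2, the others 10.9 to 11.77). In EpiRE they were Gclc at ZT0 (11.68 in mouse 2, the others 12.82 to 12.98), Slc7a11 at ZT4 (3.943 in mouse 1, the others 4.248 to 4.297) and Gclm at ZT8 (5.481 in mouse 1, the others 6.72 to 6.758). EpiRE also had G6pdx at ZT8 (16.44 in mouse 4, the others 22.25 to 23.15) and at ZT12 (19.43 in mouse 3, the others 18.17 to 18.36). In BRE they were Hmox1 at ZT0 (2.581 in mouse 3, the others 2.111 to 2.183) and Srxn1 at ZT4 (4.115 in mouse 1, the others 3.151 to 3.284). BRE also had Gclm (5.554 in mouse 3, the others 7.226 to 7.628) and G6pdx (18.13 in mouse 1, the others 20.82 to 21.04) at ZT8. In WT it was Hmox1 at ZT12 (1.577 in mouse 2, the others 2.517 to 2.77).

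The daily pattern differed between genotypes in 8 cases by limma's interaction test. BRE and WT differed for Nfe2l2 (adjusted p = 0.00502), Gclm (0.004736), Srxn1 (0.0191), Taldo1 (0.002883), G6pdx (0.02863) and Slc7a11 (0.032). EpiRE and WT differed for Taldo1 (0.00168), and RERE and EpiRE for Taldo1 (0.02617).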

How the results depend on the processing

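The counts of called genes among the 10 moved with some settings. With time as a factor, RERE had 1 in place of 3, and under rescaling it had 2. WT had 4 in place of 6 under rescaling, without the filter on low values and with the replicate block. BRE against WT had 4 in place of 6 under rescaling, without that filter and with time as a factor. It had 5 among genes with reads in most libraries. The RERE against EpiRE count was 0 in place of 1 with time as a factor and under rescaling. Leaving out each replicate number in turn gave 1 to 1 for RERE, 0 to 0 for EpiRE, 0 to 1 for BRE and 2 to 5 for WT. It gave 2 to 3 for BRE against WT, 1 to 2 for EpiRE against WT and 0 to 0 for the other pairs, RERE against EpiRE included. The relations to Nfe2l2 that passed numbered 0 (without replicate 3) to 10 (without replicate 2) in place of 7, with 2 without replicate 1. The size differences of Nfe2l2 and Gclm between BRE and WT are near 0, and their sign turned in some of these fits. They ranged from -0.15 to 0.14 for Nfe2l2, above 0 without replicates 1 and 4 (0.04), and from -0.18 to 0.052 for Gclm, above 0 without replicate 1, with these 3 differences still called. The cause of these moves was not tested beyond the fewer libraries.

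Replicate numbers showed no pairing of the mice on average. Same-numbered mice of a genotype had a mean correlation of deviations of -0.02 to 0.03, with single pairs from -0.41 to 0.38. Of 60 such pairs per genotype, 15 to 21 exceeded 0.1, a share that was not taken for mice of different numbers. A mean over all pairs cannot show whether mice of some times were paired. With the replicate block, the WT calls of Nfe2l2 and Gclm were lost (adjusted p = 0.05095 and 0.05358, limma), no other call of the 10 genes was lost, the relations to Nfe2l2 of Nqo1 in EpiRE (r = 0.513) and of Srxn1 (-0.561) and Slc7a11 (-0.533) in WT passed (permutation, adjusted p = 0.0388, 0.0243 and 0.0276), and EpiRE had 206 called genes over all genes. The permutation p-values of these relations are too small, because values were centred on replicate numbers first.

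Over all tested genes, counts changed by more than 1.5 times in these cases. EpiRE had 180 without the filter against 349, BRE had 1350 without the filter against 2072, and RERE had 1306 with time as a factor against 1993. With time as a factor, BRE against WT had 1584 against 2457, RERE against EpiRE 276 against 491, EpiRE against BRE 907 against 1692, and EpiRE against WT 629 (654 under rescaling) against 1034. RERE against WT had 55, with 10 under rescaling, 2 without the filter, 17 with time as a factor, 4 with the replicate block and 23 among genes with reads in most libraries. Without 1 replicate number, the counts were 1034 to 1275 in RERE, 6 to 378 in EpiRE, 211 to 1820 in BRE and 2065 to 3663 in WT, and 1012 to 1873 for BRE against WT. For the other pairs they were 145 to 1376 for EpiRE against WT, 0 to 2 for RERE against WT, 74 to 256 for RERE against EpiRE, 188 to 714 for RERE against BRE (582 with all) and 383 to 1313 for EpiRE against BRE. Without 1 library they were 190 to 550 in EpiRE. Depth limits Hmox1 and Nqo1 most, at medians of 55.6 and 101 estimated reads.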
